A study of Mus musculus with 19 samples.

Results

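Cell cycle inhibitors and p53 target genes were examined in mouse angiosarcomas, aorta and skeletal muscle. The set held 10 genes: Cdkn1a, Cdkn2a, Cdkn2b, Cdkn2c, Plk2, Perp, Mdm2, Ccng1, Gadd45a and Bbc3. A gene was measured where the array's annotation gave a probe set its symbol and no other. This held for 9 of the 10, out of 22180 genes on the array, and each of the 9 had 1 such probe set. The only probe set of Gadd45a also carried the symbol E230016M11Rik, so its level was not analysed here. RNA came from 7 angiosarcomas, malignant tumors of endothelial lineage, of genotype aP2-Cre/+;DicerFlox/-, and from wild type aorta, sternocleidomastoid (a neck muscle) and quadriceps femoris (a thigh muscle), with 4 samples of each. In the tumor-bearing mice, Cre recombinase was driven by the aP2 promoter and acted on a floxed allele of Dicer, the microRNA-processing enzyme, opposite a null allele. The labels describe the tumors as derived from aP2-expressing cells, and all animals had a mixed C57Bl/6 and 129X1/SvJ background. Age, sex and animal of origin were not given, and tumors and normal tissues differed in genotype as well as in tissue.

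The transcription factor p53 is stabilised by DNA damage and oncogenic stress and switches on genes that halt the cell cycle or trigger apoptosis. Cdkn1a encodes p21, which blocks cyclin-dependent kinases, and Bbc3 encodes PUMA, which frees the mitochondrial death pathway. Mdm2 encodes the ubiquitin ligase that degrades p53 and is itself a p53 target, which closes a feedback loop. The INK4 inhibitors encoded by Cdkn2a, Cdkn2b and Cdkn2c bind the kinases CDK4 and CDK6, and the Cdkn2a locus also encodes p19Arf, an inhibitor of MDM2.

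Levels are given as log2 intensity, and array medians lay between 5.35 and 5.48. All 12 endothelial markers were higher in tumors than in aorta, and all 24 measured mitotic genes were higher in tumors than in aorta and than in muscle. Aortas also carried heart muscle and brown adipocyte markers, at mean levels of 9.62 to 10.37 and 10.72 to 11.35. The mean of 7 adipocyte markers ran from 5.82 to 10.77 in tumors, with the highest values in tumors 4, 5 and 6. These are bulk RNA levels, in which fewer cells of a type and less RNA per cell cannot be told apart. P-values measure only the spread between these samples, which may be technical.

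Against aorta, 5 of the 9 measured genes passed the test (limma, adjusted p below 0.05 over all genes): Plk2, Cdkn2b and Mdm2 were higher in tumors, and Perp and Cdkn2c were lower. Among all genes 36.2% passed this test, 18.6% in the higher and 17.5% in the lower direction. The groups did not overlap in 3 of the 9 (Plk2, Cdkn2b and Perp), against 23.7% of all genes. Against muscle (the mean of both muscle group means), Plk2, Cdkn1a, Bbc3 and Cdkn2b were higher in tumors and Ccng1 and Perp were lower. Among all genes 51.0% passed that test, 25.3% higher and 25.7% lower. With arrays centred on 10 housekeeping genes, 2 were higher and 3 lower than in muscle, beside 17.2% higher and 54.8% lower of all genes. Those housekeeping genes differed between the tissues themselves, with 5 higher and 3 lower in tumors than in muscle, from Actb at 2.12 to Tfrc at -2.21. Groups did not overlap in 2 of the 9 (Plk2 and Ccng1), against 27.3% of all genes. The median difference of the 9 genes was 0.41 log2 units against aorta, beside -0.02 over all genes. Against muscle it was 0.27, beside -0.04 over all genes. The set held genes of both directions, with Plk2 the furthest above both normal tissues and Perp the furthest below aorta.

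**Figure D1:**
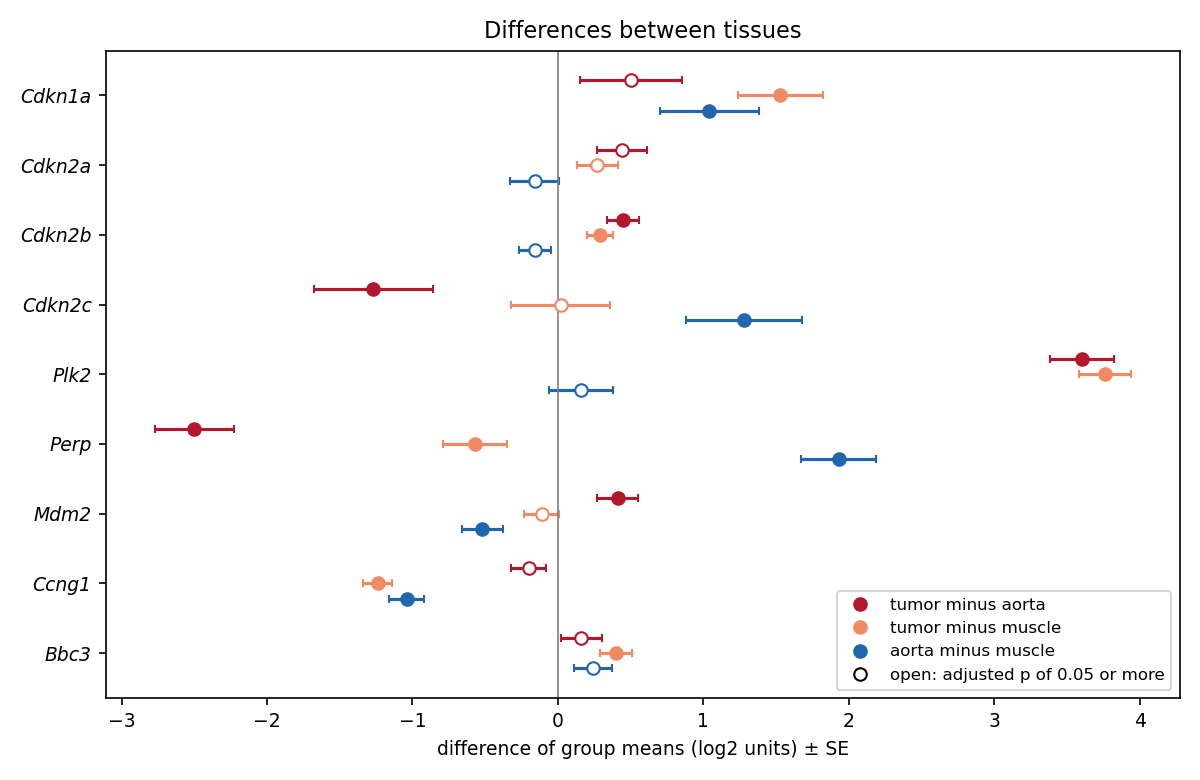
Differences of group means in log2 units (horizontal axis) with their SE for the 9 measured genes, in the comparisons of tumor with aorta, tumor with muscle and aorta with muscle. Filled points passed the test; Plk2 lies at 3.6 and 3.76 in the tumor comparisons and Perp at -2.5 in tumor minus aorta.

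Cdkn1a was high in tumors and aorta and lower in muscle. It ran from 9.52 to 10.58 in tumors (median 10.15). In aortas it read 9.69, 9.22, 9.96 and 9.54, in sternocleidomastoid 9.71, 9.57, 8.05 and 8.35, and in quadriceps 8.89, 8.98, 7.69 and 7.3. Samples 1 and 2 of each muscle were above samples 3 and 4, so muscle values spread over 2.4 log2 units. The tumor mean was 10.1 ± 0.42 (SD, n = 7) and the muscle mean 8.57 ± 0.87 (SD, n = 8), a difference of 1.53 ± 0.29 (SE; limma adjusted p = 0.000153) or 2.89-fold higher, although the ranges overlapped. Against the aorta mean of 9.6 ± 0.31 (n = 4) the difference of 0.5 ± 0.35 did not pass (adjusted p = 0.298). Aorta was above muscle by 1.04 ± 0.34 (adjusted p = 0.0246), a call lost without aorta 1 (adjusted p = 0.0627) or aorta 3 (adjusted p = 0.0832).

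Promoter windows of 250 bases before the transcription start were taken from RefSeq (GRCm38.p6), which has them for 9 of the 10 genes, Perp being the exception, in 14 windows. They were searched on both strands for the p53 half-site, for the full p53 site (a pair of half-sites with at most 13 bases between them) and for the GC box GGGCGG. The windows shown belong to p53 targets that differ in direction between tissues: Cdkn1a, which has 2 annotated starts 2790 bases apart, Mdm2, Ccng1 and Plk2. Capitals mark p53 half-sites and GC boxes, and no half-site overlapped a GC box.
Cdkn1a upstream start, chr17:29090729-29090978, plus strand: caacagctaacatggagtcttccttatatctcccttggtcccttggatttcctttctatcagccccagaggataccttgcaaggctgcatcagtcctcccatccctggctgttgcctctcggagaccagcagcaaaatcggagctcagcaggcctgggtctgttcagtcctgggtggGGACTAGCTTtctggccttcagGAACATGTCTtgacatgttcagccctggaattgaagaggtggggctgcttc
Cdkn1a downstream start, chr17:29093519-29093768, plus strand: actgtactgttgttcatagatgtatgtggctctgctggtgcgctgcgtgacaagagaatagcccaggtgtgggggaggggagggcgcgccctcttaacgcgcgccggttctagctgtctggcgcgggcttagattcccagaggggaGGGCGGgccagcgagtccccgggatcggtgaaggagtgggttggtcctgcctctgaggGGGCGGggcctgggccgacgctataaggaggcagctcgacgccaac
Mdm2, chr10:117710759-117711008, minus strand: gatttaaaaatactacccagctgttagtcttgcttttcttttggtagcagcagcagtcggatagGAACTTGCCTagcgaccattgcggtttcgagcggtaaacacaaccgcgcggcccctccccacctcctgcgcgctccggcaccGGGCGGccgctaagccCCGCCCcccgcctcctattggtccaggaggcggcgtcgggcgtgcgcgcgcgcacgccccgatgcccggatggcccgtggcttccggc
Ccng1, chr11:40755287-40755536, minus strand: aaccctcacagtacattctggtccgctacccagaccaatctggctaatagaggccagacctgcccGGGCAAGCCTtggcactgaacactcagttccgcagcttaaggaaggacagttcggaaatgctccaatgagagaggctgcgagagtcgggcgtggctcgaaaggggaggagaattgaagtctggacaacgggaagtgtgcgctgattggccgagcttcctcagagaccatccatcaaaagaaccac
Plk2, chr13:110394794-110395043, plus strand: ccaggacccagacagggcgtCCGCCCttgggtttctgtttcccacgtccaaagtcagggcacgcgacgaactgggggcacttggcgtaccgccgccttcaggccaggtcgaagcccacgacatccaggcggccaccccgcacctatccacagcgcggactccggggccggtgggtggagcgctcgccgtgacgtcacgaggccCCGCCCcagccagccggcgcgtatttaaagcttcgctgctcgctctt
The upstream Cdkn1a window held half-sites 73 and 51 bases before the start and so, by this definition, a full site, which 21 of 32851 windows held (0.0639%). The stretch directly after the half-site at 51 bases misses the half-site pattern in 1 base and was not marked. Mdm2 and Ccng1 held 1 half-site each, 186 and 185 bases before the start, as 7.13% of windows do. Of the windows not shown, only that of Gadd45a held a half-site, 40 bases before the start. The Plk2 window held no half-site and GC boxes 230 and 47 bases before the start, a motif in 32.7% of windows. A match is a run of letters and not evidence of binding.

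Among the INK4 genes, Cdkn2b and Cdkn2c differed in opposite directions from aorta. Cdkn2b, which encodes p15, ran from 6.83 to 7.28 in tumors (median 6.98), against 6.57, 6.45, 6.45 and 6.75 in aortas. Every tumor lay above every aorta, with means of 7.01 ± 0.18 (n = 7) and 6.56 ± 0.14 (SD, n = 4). The difference was 0.45 ± 0.11 (adjusted p = 0.00294), or 1.37-fold. Against muscle, with 6.91, 6.38, 6.66 and 6.56 in sternocleidomastoid and 6.65, 6.81, 6.92 and 6.85 in quadriceps, it was 0.29 ± 0.09 (adjusted p = 0.0119) and the ranges overlapped. That call was lost under centring on housekeeping genes (0.03, adjusted p = 0.747) and quantile normalization (0.19, adjusted p = 0.117).

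Cdkn2c, which encodes p18, varied widely among tumors and was high and even in aortas. Tumors ran from 6.3 to 8.84 (median 6.67), with tumors 5, 6 and 4 at 8.84, 8.04 and 7.5 and the other tumors at 6.67 or less. The aortas read 8.25, 8.59, 8.23 and 8.61, so that tumor 5 lay above all of them and the other tumors below. The tumor mean was 7.15 ± 1.0 (n = 7) and the aorta mean 8.42 ± 0.21 (SD, n = 4), and Cdkn2c was lower in tumors by 1.27 ± 0.41 (a difference of -1.27, adjusted p = 0.0214). Leaving out aorta 2 (adjusted p = 0.0561) or aorta 4 (adjusted p = 0.0585) lost this call, as did tumors 5 to 7 alone (-0.66, adjusted p = 0.328). Sternocleidomastoid read 7.03, 7.26, 6.65 and 7.46 and quadriceps 6.65, 6.61, 7.32 and 8.12, within the range of the tumors. Against muscle the difference was 0.02 ± 0.34 (adjusted p = 0.974), with a sign that turned under several settings. Aorta was above muscle by 1.28 ± 0.4 (adjusted p = 0.0191), with no overlap; that call was lost without aorta 2 (adjusted p = 0.0552) or aorta 4 (adjusted p = 0.0553).

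The adipocyte markers were also highest in tumors 5, 6 and 4, in that order. Their mean was 10.77, 10.08 and 8.96 in tumors 5, 6 and 4 and at most 7.03 in the other tumors, against 10.28 to 10.47 in aortas. The other tumors did not keep the order: tumor 2 read 6.67 in Cdkn2c with a marker mean of 5.86, and tumor 1 read 6.31 with 7.03. In quadriceps the sample with the highest Cdkn2c, 8.12 in sample 4, also had the highest adipocyte mean, 10.13. Sample 3, next in Cdkn2c at 7.32, had the lowest, 7.92. In sternocleidomastoid, sample 4 was highest in Cdkn2c (7.46, marker mean 8.73) and sample 2 highest in the markers (8.85). Of the 7 measured markers, 5 were lower and 0 higher in tumors than in aorta. Array values have no true zero, and the part of these cells in the Cdkn2c result was not tested.

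**Figure D2:**
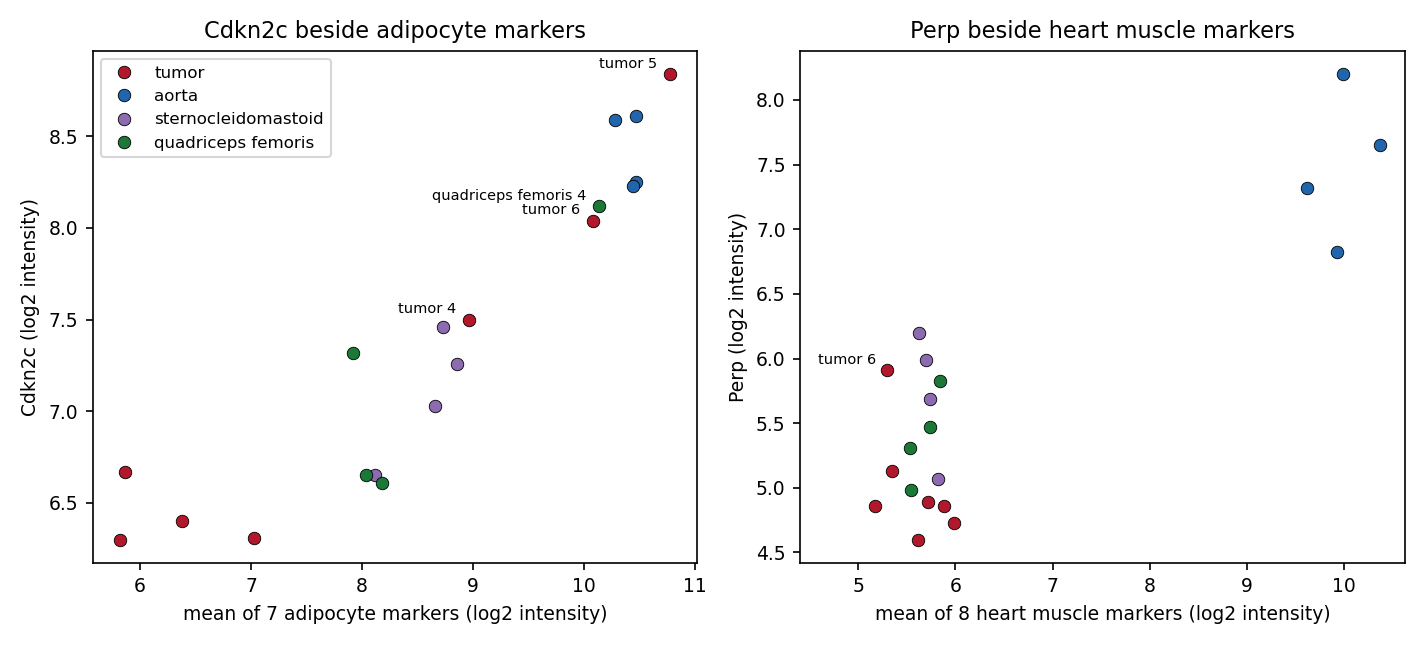
Cdkn2c against the mean of 7 adipocyte markers (left) and Perp against the mean of 8 heart muscle markers (right), in log2 intensity, with 1 point per array coloured by tissue. On the left, tumor 5 lies above all aortas on both axes, tumor 6 and quadriceps 4 just below them, and tumor 4 beside sternocleidomastoid 4. On the right, the 4 aortas lie apart.

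Cdkn2a, which encodes p16 and p19Arf from starts 12427 bases apart, did not pass in either tumor comparison. Tumors ran from 6.07 to 7.11 (median 6.32), with tumor 1 highest, against 6.05, 5.73, 6.21 and 5.94 in aortas, 6.44, 5.88, 6.26 and 5.8 in sternocleidomastoid and 6.19, 6.0, 6.2 and 6.37 in quadriceps. All groups overlapped. The difference from aorta was 0.44 ± 0.17 (adjusted p = 0.0524), close to the threshold, and passed without tumor 2 (adjusted p = 0.0291), tumor 5 (adjusted p = 0.0296), aorta 3 (adjusted p = 0.0448) or sternocleidomastoid 1 (adjusted p = 0.047). Without tumor 1 it was 0.32 (adjusted p = 0.0858), and without aorta 2 it was 0.35 (adjusted p = 0.167). Against muscle it was 0.27 ± 0.14 (adjusted p = 0.115), and 0.16 (adjusted p = 0.285) without tumor 1. Which of the transcripts the probe set reads is not given in the sources used here.

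Plk2, a polo-like kinase and p53 target that acts in centriole duplication, was the gene of the set that separated tumors most. It ran from 8.86 in tumor 4 to 10.51 in tumor 2 (median 10.03). Aortas read 6.53, 6.3, 6.31 and 5.99, sternocleidomastoid 6.14, 6.39, 6.25 and 6.07, and quadriceps 6.12, 6.15, 5.89 and 5.97. The lowest tumor lay more than 2 log2 units above the highest normal sample. The tumor mean of 9.88 ± 0.57 (n = 7) was 12.09-fold above the aorta mean of 6.28 ± 0.22 (SD, n = 4), a difference of 3.6 ± 0.22 (adjusted p = 1.15e-09). Against muscle the difference was 3.76 ± 0.18 (adjusted p = 3.33e-12), or 13.5-fold. Plk2 ranked 13th of 22180 genes by its difference from aorta and 19th by its difference from muscle. Aorta and muscle did not differ beyond the test (0.16 ± 0.22, adjusted p = 0.644). All 12 endothelial markers were also higher in tumors. Their means were 9.79 to 10.84 in tumors, 8.49 to 8.61 in aortas, 7.83 to 8.2 in sternocleidomastoid and 7.81 to 8.03 in quadriceps. Of these 12, 8 were also higher in aorta than in muscle, where Plk2 did not differ beyond the test. Among tumors, the endothelial mean was 9.93 in tumor 2, highest in Plk2, and 10.39 in tumor 4, lowest in Plk2. Macrophage markers (9 of 10 higher than in aorta) and mitotic genes were also higher in tumors. Tumor 4, lowest in Plk2, had a mitotic mean of 8.08, near the top of the tumors. Tumor 7, next lowest in Plk2 at 9.37, had the lowest endothelial and mitotic means of the tumors, 9.79 and 6.81. The macrophage mean was highest in tumor 2, at 9.38, and next highest in tumor 7, at 9.29. The part of these markers and genes in the Plk2 result was not tested.

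**Figure D3:**
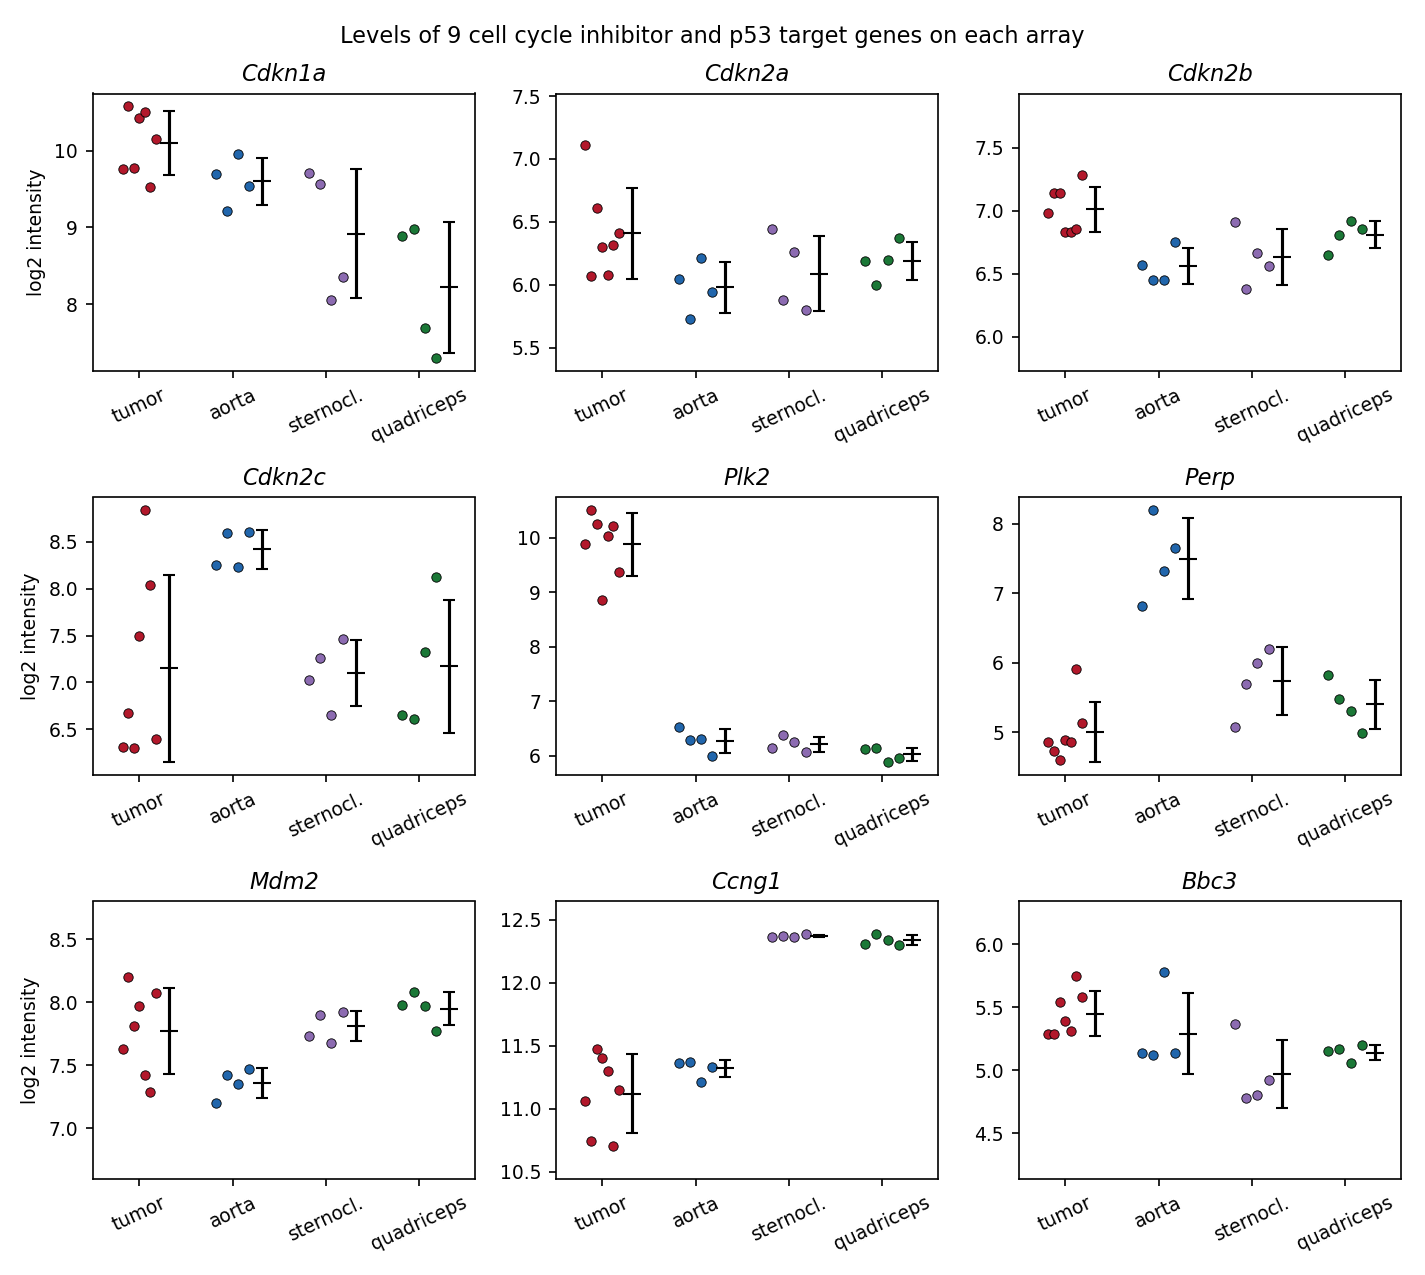
Log2 intensity of the 9 measured genes on every array, with group mean and SD beside the points. Plk2 is above every normal sample in all 7 tumors, Perp is highest in the aortas, and Ccng1 sits between 12.3 and 12.39 in all muscle samples.

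Ccng1, cyclin G1, a p53 target that acts on MDM2, was highest in muscle. Tumors ran from 10.7 to 11.47 (median 11.15) and aortas read 11.36, 11.37, 11.21 and 11.33. Sternocleidomastoid read 12.36, 12.37, 12.36 and 12.39 and quadriceps 12.31, 12.39, 12.34 and 12.3. No tumor and no aorta reached the lowest muscle sample. Tumor minus muscle was -1.24 ± 0.1 (adjusted p = 3.86e-09), 2.35-fold lower in tumors, and the aorta minus muscle difference was -1.04 ± 0.12 (adjusted p = 1.4e-06). Skeletal muscle markers also fell in tumors against muscle (8 of 8), at means of 5.46 to 10.51 in tumors, 12.19 to 12.29 in sternocleidomastoid and 11.82 to 12.26 in quadriceps. Their part in the Ccng1 result was not tested. Tumor and aorta did not differ beyond the test (-0.2 ± 0.12, adjusted p = 0.231).

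Mdm2 ran from 7.29 to 8.2 in tumors (median 7.81), against 7.2, 7.42, 7.35 and 7.47 in aortas. The groups overlapped. The difference of 0.41 ± 0.14 (adjusted p = 0.0287) was lost without any one of tumors 2, 4 and 7 or aortas 1 and 3 (adjusted p = 0.051, 0.0537, 0.0548, 0.0946 and 0.0613). Quantile normalization also ended it (0.36, adjusted p = 0.0724). In muscle, Mdm2 read 7.73, 7.9, 7.68 and 7.92 in sternocleidomastoid and 7.98, 8.08, 7.97 and 7.77 in quadriceps. Tumor minus muscle was -0.11 ± 0.12 (adjusted p = 0.471), ranging from -0.18 without tumor 2 to -0.03 without tumor 6, and aorta was below muscle (-0.52 ± 0.14, adjusted p = 0.0064) with no overlap.

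Perp and Bbc3 act in cell death: Perp is a membrane protein of p53-dependent apoptosis and of desmosomes, and Bbc3 encodes PUMA. Perp was low in tumors, from 4.6 to 5.91 (median 4.86), against 6.82, 8.2, 7.32 and 7.65 in aortas. Every tumor lay below every aorta. The tumor mean of 5.0 ± 0.43 (n = 7) was below the aorta mean of 7.5 ± 0.58 (SD, n = 4), a difference of -2.5 ± 0.27 (adjusted p = 5.68e-07) or 5.66-fold. In 6 of 7 tumors Perp lay below the lowest array median of 5.35, and with no detection calls in the table this fold may understate the difference. Heart muscle markers (8 of 8 lower in tumors than in aorta, at 5.17 to 5.98 in tumors and 9.62 to 10.37 in aortas) and brown adipocyte markers (8 of 8 lower, at 4.92 to 8.29 in tumors and 10.72 to 11.35 in aortas) also fell from aorta to tumors. Smooth muscle markers did too (6 of 8 lower and 0 higher, at 8.42 to 9.46 in tumors and 9.96 to 10.4 in aortas), and tumor 6, highest of the tumors in Perp, was also highest in them. Of 7 keratinocyte markers 3 were lower, Dsp by far the most (-2.82), a desmosomal gene that heart muscle also expresses, and Dsc3 and Krt10 at -0.56 and -0.29. The other 4, with Krt14 at 0.34, did not pass. Their part in the Perp result was not tested. Against muscle, with 5.07, 5.69, 5.99 and 6.2 in sternocleidomastoid and 5.83, 5.47, 5.31 and 4.98 in quadriceps, Perp was lower by 0.57 ± 0.22 (a difference of -0.57, adjusted p = 0.0367). That call was lost without any one of tumors 1 to 5, quadriceps 1 or 2, or sternocleidomastoid 3 or 4, 9 of the 19 arrays (adjusted p up to 0.078), and was -0.27 (adjusted p = 0.51) with tumors 5 to 7 alone. Aorta was above muscle by 1.93 ± 0.26 (adjusted p = 9.03e-06), 3.8-fold.

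Bbc3 was close to the array medians in all tissues, at 5.29 to 5.75 in tumors (median 5.39), against 5.14, 5.12, 5.78 and 5.14 in aortas. In sternocleidomastoid it read 5.37, 4.78, 4.8 and 4.92, and in quadriceps 5.15, 5.17, 5.06 and 5.2. The tumor minus muscle difference of 0.4 ± 0.11 (adjusted p = 0.00556) passed, but was 0.14 (adjusted p = 0.332) with centring on housekeeping genes. Tumor minus aorta was 0.16 ± 0.14 (adjusted p = 0.4).

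Between the normal tissues, aorta differed from muscle in 5 of 9 genes, with Cdkn1a, Cdkn2c and Perp higher and Mdm2 and Ccng1 lower, against 32.3% of all genes (17.0% higher and 15.3% lower). With housekeeping centring 3 were higher and 3 lower, beside 9.72% and 30.1% of all genes. Groups did not overlap in 4 of the 9 (Cdkn2c, Perp, Mdm2 and Ccng1), against 27.2% of all genes. Sternocleidomastoid and quadriceps differed in 0 of 9 (limma), against 0.433% of all genes (0.234% higher and 0.198% lower), and 0 of 9 had an unadjusted p below 0.05, the lowest being 0.0913 for Cdkn1a (difference 0.7 ± 0.39). Their groups overlapped for all 9, where 7.60% of all genes did not overlap. In the order of group means, neighbouring groups overlapped in range except tumor over aorta for Plk2, aorta over the next group for Cdkn2c and Perp, and quadriceps over aorta for Ccng1.

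Of 10 measured paralogs, 3 were higher and 1 lower in tumors than in aorta (median 0.27), and 5 higher and 3 lower than in muscle (median 0.05), or 4 higher and 5 lower with housekeeping centring. Over all genes 18.6% were higher and 17.5% lower than in aorta, and 25.3% higher and 25.7% lower than in muscle. With housekeeping centring 17.2% of all genes were higher and 54.8% lower than in muscle. The same shares stand beside the counts of the lists that follow. The polo-like kinases Plk1, Plk3 and Plk4 were higher in tumors than in aorta by 2.79 ± 0.26, 1.67 ± 0.22 and 1.29 ± 0.2 (adjusted p = 1.27e-07, 7.6e-06 and 3.84e-05). Against muscle they were higher by 2.82 ± 0.22, 2.19 ± 0.18 and 1.88 ± 0.16. Plk1 and Plk4 are genes of mitosis and centriole duplication that are high in dividing cells. Cdkn1c, which encodes p57, was lower in tumors than in muscle (-0.86 ± 0.11, adjusted p = 9.91e-07) and than in aorta (-0.35 ± 0.13, adjusted p = 0.0367), the aorta call being lost in 8 of 19 leave-one-out fits (tumors 3, 4, 6 and 7 and each aorta; adjusted p up to 0.0803). Gadd45g, a stress sensor, was lower than in muscle by 1.51 ± 0.38 (a difference of -1.51, adjusted p = 0.00213). Gadd45b was also lower (-0.82 ± 0.33, adjusted p = 0.0435), a call lost in 13 of 19 (adjusted p up to 0.0955). Aorta was below muscle in Gadd45b too (-1.68 ± 0.39, adjusted p = 0.00204), and in Cdkn1c (-0.5 ± 0.13, adjusted p = 0.00373). Ccng2 (0.64 ± 0.11, adjusted p = 8.32e-05) and Mdm4 (0.25 ± 0.1, adjusted p = 0.0415) were higher than in muscle, the Mdm4 call being lost in 9 of 19 (adjusted p up to 0.101) and its sign turning under housekeeping centring. Aorta was above muscle in Ccng2 too (0.56 ± 0.14, adjusted p = 0.00303). Cdkn1b and Cdkn2d passed in neither tumor comparison.

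Of 20 other measured p53 targets, 8 were higher and 6 lower in tumors than in aorta (median 0.21), and 8 were higher and 7 lower than in muscle (median -0.01), or 6 higher and 9 lower with housekeeping centring. The 6 lower than in aorta included Fas (-1.3 ± 0.21, adjusted p = 5.31e-05). They also included Sesn1, Ei24 and Phlda3 (-0.87 ± 0.2, -0.85 ± 0.16 and -0.8 ± 0.14), which were lower than in muscle as well. Fas did not differ from muscle beyond the test (-0.26 ± 0.17, adjusted p = 0.219), and aorta was above muscle (1.04 ± 0.2, adjusted p = 0.000453). Tnfrsf10b, a death receptor for TRAIL, was 2.22 ± 0.28 above aorta (adjusted p = 3.93e-06) and 3.4 ± 0.23 above muscle (adjusted p = 2.81e-10). Apaf1, the scaffold of the apoptosome, was higher by 1.88 ± 0.19 and 2.51 ± 0.16, and Btg2, an antiproliferative factor, by 1.9 ± 0.25 and 2.09 ± 0.21. Eda2r, a receptor of the TNF family, was higher than in aorta (1.56 ± 0.21, adjusted p = 7.97e-06). It did not differ from muscle beyond the test (-0.12 ± 0.17, adjusted p = 0.607), and aorta was below muscle (-1.68 ± 0.2). Tigar, which diverts glucose away from glycolysis, was lower than in muscle (-2.25 ± 0.11, adjusted p = 3.92e-12). Aorta was also below muscle in Tigar (-2.01 ± 0.13), and tumor and aorta did not differ beyond the test (-0.24 ± 0.14, adjusted p = 0.182).

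**Figure D4:**
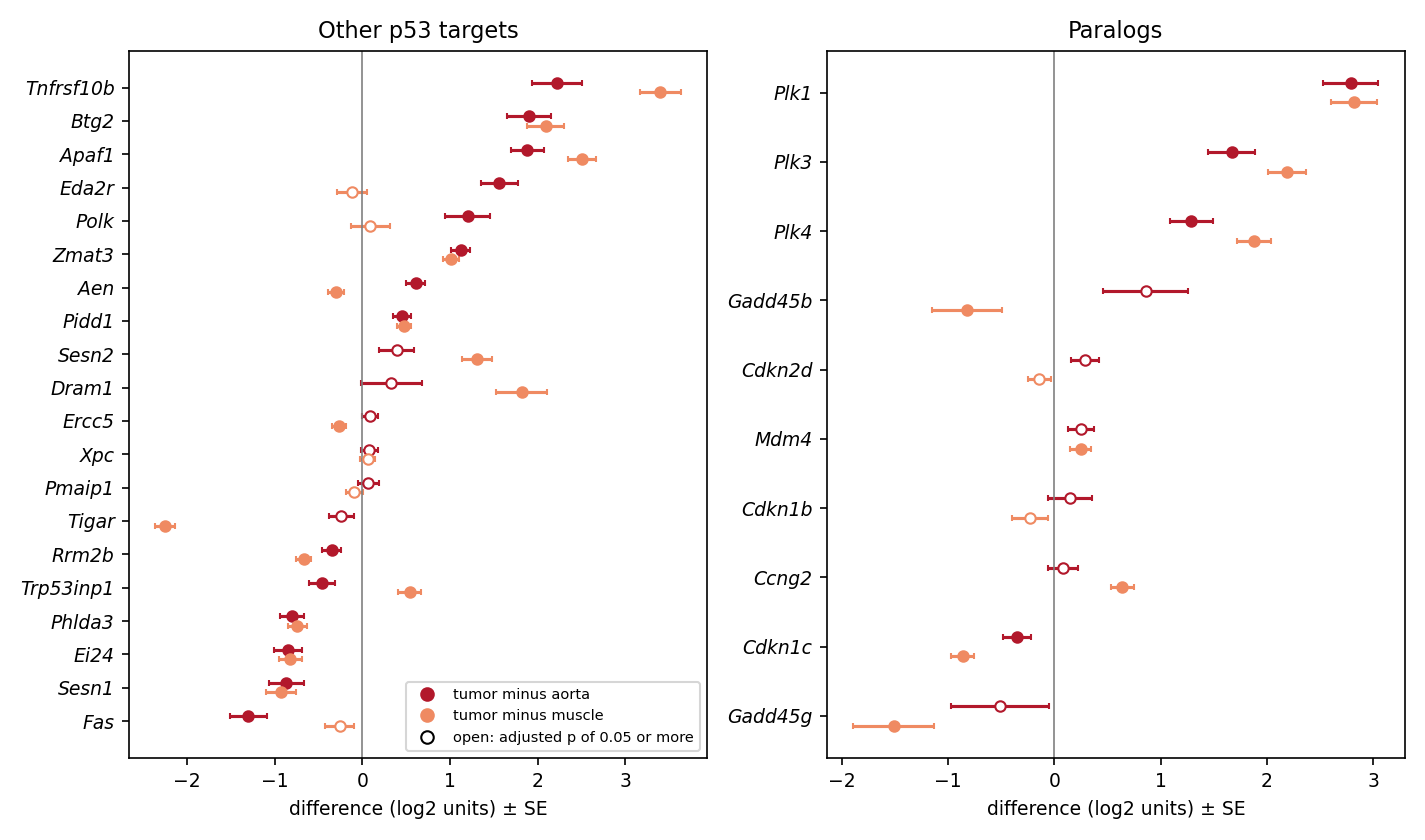
Differences in log2 units with SE for other p53 targets (left) and paralogs of the genes (right), against aorta and against muscle, with filled points past the test. Tnfrsf10b, Btg2 and Apaf1 lie to the right and Tigar, against muscle, to the left, and Plk1, Plk3 and Plk4 lead the paralogs.

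Among 13 measured members of the p53 family and its regulators, 4 were higher and 1 lower against aorta, and 5 higher and 6 lower against muscle, or 3 higher and 7 lower with housekeeping centring. The checkpoint kinases Chek2 and Chek1 were higher in both (0.96 ± 0.16 and 0.88 ± 0.18 against aorta, 1.31 ± 0.13 and 0.92 ± 0.15 against muscle). Hipk2, a kinase that phosphorylates p53, was lower than in muscle (-0.93 ± 0.24, adjusted p = 0.00279). The deacetylase Sirt1 was lower than in aorta (-0.53 ± 0.1) and the p53 relative Trp63 lower than in muscle (-1.46 ± 0.11, adjusted p = 1.71e-09). Aorta was also below muscle in Trp63 (-1.43 ± 0.13), and tumor and aorta did not differ beyond the test (-0.03 ± 0.14, adjusted p = 0.881). Trp53 itself has no single-symbol probe set and was not analysed here. Among 14 regulators of the Cdkn2a locus, 7 were higher and 1 lower against aorta and 9 higher and 2 lower against muscle, or 5 higher and 3 lower with housekeeping centring. Ezh2, the Polycomb methyltransferase that silences the locus, was higher by 1.13 ± 0.12 and 1.2 ± 0.1, and the activators Ets1 and Ets2 were higher by 1.0 ± 0.17 and 1.34 ± 0.21 against aorta and by 1.78 ± 0.14 and 0.87 ± 0.17 against muscle. The Polycomb protein Cbx7 was lower (-0.74 ± 0.17 and -1.18 ± 0.14).

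The inhibitors act on the G1 machinery. Of 16 G1 cyclins, kinases, E2F factors and pocket proteins, 13 were higher and 1 lower against aorta (median 0.92), and 12 higher and 1 lower against muscle (median 1.15). Cyclin D1, Ccnd1, was higher by 2.58 ± 0.28 against aorta and 2.91 ± 0.23 against muscle, and Cdk6 by 2.97 ± 0.2 against muscle (adjusted p = 2.18e-10). Skp2, which targets p27 for degradation, was higher by 1.69 ± 0.19 against aorta. Of 13 BCL2 family genes, 7 were higher and 0 lower against aorta, with Bcl2l11, which encodes BIM, at 1.26 ± 0.22 (adjusted p = 0.000125) and Bok, a relative of BAX, at 0.87 ± 0.19 (adjusted p = 0.00121). Against muscle 8 were higher and 0 lower, or 7 higher and 3 lower with housekeeping centring, with Bok at 1.55 ± 0.16 (adjusted p = 7.74e-08) and Bcl2l1, which encodes BCL-XL, at 0.95 ± 0.15 (adjusted p = 1.8e-05).

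Within the 7 tumors, 17 relations were computed: each of the 9 genes with the mean of the mitotic genes, and Cdkn1a with each of the other 8 genes. The mitotic mean was 7.89 to 8.17 in tumors 1 to 4 and 6.81 to 7.37 in tumors 5 to 7, sets that also differ in their title codes. No pooled correlation with it is given for that reason, and each set holds too few tumors for a value of its own. The relations of Cdkn1a pool both sets, and none passed adjustment over the 17 (exact permutation tests, n = 7). Cdkn1a with Cdkn2a had the lowest Spearman p of these, 0.048 (exact; rho -0.79, adjusted p = 0.563), with r -0.65 (exact p = 0.105, adjusted p = 0.593) and r -0.88 without tumors 6 and 2.

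Over the 19 arrays, the genes with the most similar pattern were described by Pearson's r among 10626 genes above the median level. Plk2 was closest to Sema4c (0.987) and B3gnt3 (0.983), Ccng1 to Metap1 and Cops4 (both 0.974) and Cdkn2c to Acvr1c (0.963) and Slc1a3 (0.96). Perp was closest to Pln (0.934) and Kcnab1 (0.912), and Mdm2 to Ssr3 (0.934) and Nars (0.916). Cdkn2b was closest to Arhgap22 (0.875) and Cdk5rap3 (0.862), and Cdkn1a to Kdm5c (0.867) and Pdlim5 (0.858). Lower values belonged to Cdkn2a, with Triobp (0.818) and Rpl29 (0.799), and Bbc3, with Cnppd1 (0.793) and Vill (0.786). The points are 19 arrays of 4 tissues, and these values include the differences between tissues.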

How the data were processed

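RNA was profiled on Affymetrix arrays, 1 per sample. Per the labels' protocols, RNA was extracted with the miRNeasy mini kit, checked on an Agilent Bioanalyser and labelled as biotinylated cRNA. Partek 6.6 is named, per the submitters' processing notes, without its role. The deposited table was taken to hold log2 intensity, from its range of 1.59 to 13.78, and how the authors normalised them is not given in the sources used here. Of 41345 probe sets, 23521 had 1 symbol, 1814 several and 16010 none in the platform annotation, and none of the symbols needed updating. For the 1082 genes with several single-symbol probe sets, the one with the highest mean was used, giving 22180 genes.

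All 19 arrays entered 1 limma model (version 3.58.1, R 4.3.3) with a mean per group, using lmFit and eBayes. Two-sided p-values were adjusted by Benjamini-Hochberg over the 22180 genes, and a gene passed below 0.05. Muscle is the mean of both muscle group means. Samples are numbered in accession order within a group, and the title codes of tumors 1 to 4 come before, and those of tumors 5 to 7 after, the codes of the normal tissues. Python 3.11.15 with pandas 2.3.3, scipy 1.17.1 and matplotlib 3.10.9 made tables, permutation tests and figures. The pipeline was tested on simulated data. The genes described are all 10 members of the set, 10 listed paralogs, the 2 to 4 largest passing differences of each other list in a comparison, and the 2 most similar genes of each member. Fas, Sesn1, Ei24 and Phlda3, furthest below aorta among the other p53 targets, were added to these. Members and lists were chosen with earlier results of these data known. Alternatives were other centrings, quantile normalization, a filter on dim genes, other probe set summaries, eBayes options, the compared groups alone, stricter thresholds, tumor subsets, single muscles and leaving out each array. The number of arrays limits the precision.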

Additional observations from a re-analysis of the deposited data

Results flagged for a closer look

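Of 36 checks for a sample far from the others of its group, 2 found one, and chance gives about 1 in 20. Perp read 5.91 in tumor 6, against 4.6 to 5.13 in the other tumors, with a gap of 0.59 of the range (limit 0.568). Without tumor 6 the difference of Perp was -2.65 from aorta and -0.72 from muscle (adjusted p = 1.12e-07 and 0.00497), so tumor 6 narrowed both. Tumor 6 also had the highest smooth muscle marker mean of the tumors, 9.46, and its part was not tested.

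Bbc3 read 5.78 in aorta 3, against 5.12 to 5.14 in the other aortas, with a gap of 0.97 of the range (limit 0.829). Without aorta 3, tumor minus aorta of Bbc3 was 0.32 (adjusted p = 0.0529) in place of 0.16 (adjusted p = 0.4).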

How the results depend on the processing

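No paired analysis was possible because the labels give no replicate numbers. In all 19 fits that left out 1 array, Plk2 kept its call in both tumor comparisons, and Perp and Cdkn2b kept theirs against aorta. Ccng1, Cdkn1a, Cdkn2b and Bbc3 kept theirs against muscle, and Perp, Ccng1 and Mdm2 in aorta minus muscle. The count of members higher in tumors than in aorta ran from 2 to 4 in those fits (3 with all arrays) and of members lower from 1 to 2 (2). Against muscle the count of members lower ran from 1 to 2 (2), and aorta minus muscle had 2 to 3 members higher (3).

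Members higher or lower also changed with other settings. Housekeeping centring, which moved the median of all genes against muscle to -0.292, against -0.038 before, left 2 members higher than in muscle (4). A minimum 2-fold difference left 1 member higher and a threshold of 0.01 left 1 member lower against aorta; against muscle the 2-fold minimum left 2 members higher and 1 lower and the threshold 1 lower. For aorta minus muscle the 2-fold minimum left 1 member lower and the threshold 1 higher. The compared groups alone left 1 member lower against aorta, tumors 5 to 7 alone left 1 lower in each tumor comparison, quadriceps alone left 2 higher and 1 lower against muscle, and leaving out tumors 4 and 5 left 1 lower against muscle. Except for housekeeping centring, shares over all genes at these settings are not given here. Whether members lost calls more often than other genes is therefore not shown.

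Signs turned for Cdkn2c tumor minus muscle (main 0.02), at -0.04 with median centring, -0.24 with housekeeping centring, -0.04 with quantile normalization, -0.02 with quadriceps alone, -0.44 with tumors 1 to 4, -0.39 without tumors 4 and 5, and -0.26 to 0.17 leaving out 1 array. They also turned for Ccng1 tumor minus aorta (0.05, quantile), Mdm2 tumor minus muscle (0.02, tumors 1 to 4), Plk2 aorta minus muscle (-0.05, housekeeping), Ccng1 between muscles (-0.04, housekeeping) and Mdm4 tumor minus muscle (-0.00164, housekeeping). Leaving out 1 array gave -0.26 to 0.24 for Cdkn2c and -0.21 to 0.00129 for Cdkn2a between muscles, -0.01 at the lowest for Cdkn1b and -0.02 to 0.15 for Ccng2 against aorta. None of the turned values passed the test, and the cause was not tested. Calls were also lost for Cdkn2c and Mdm2 against aorta in the compared groups alone (adjusted p = 0.0514 and 0.0819), Mdm2 with tumors 5 to 7 (0.24, adjusted p = 0.301), Cdkn2b and Bbc3 against quadriceps alone (0.2 and 0.31, adjusted p = 0.16 and 0.0708) and Cdkn1a in aorta against sternocleidomastoid alone (0.68, adjusted p = 0.226). Cdkn2a against aorta passed with median centring (adjusted p = 0.047) and without dim genes (adjusted p = 0.0399). The table gives no detection calls, so how far genes near the array medians, such as Bbc3, Cdkn2a and, in tumors, Perp, lie above background is unknown.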
